A study of Homo sapiens with 6 samples.

Results

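Transcripts of 41 splicing factor genes, among them the pseudogene HNRNPA3P1, were followed in RPMI 8226 cells 1 day after irradiation with carbon ions. RPMI 8226 is an established human multiple myeloma line. The genes were taken by symbol from 18417 genes measured alone on the array: 12 SR protein genes (SRSF followed by a number), 20 genes whose symbol starts with HNRNP, and 9 SF3 genes (SF3A or SF3B followed by a number). Where a gene had several probe sets, the brightest on average across the 6 arrays stood for it, which applied to SRSF10 alone. Irradiated cells had received 6 Gy of carbon ions and unirradiated cells 0 Gy, and total RNA of 3 samples of each was biotin-labelled and hybridised to 1-colour arrays. Both groups were grown in the same serum-supplemented medium, and results hold for 1 line. The labels number the samples within a dose but name no separate cultures, and p-values may therefore measure technical spread.

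Splicing removes introns from new transcripts. The SF3A and SF3B complexes are parts of the U2 small nuclear ribonucleoprotein (snRNP) and fix it at the branch point of an intron. SR proteins carry RNA recognition motifs and a tail rich in arginine and serine, bind exons and recruit the spliceosome, while heterogeneous nuclear ribonucleoproteins (hnRNPs) coat nascent RNA and often act against SR proteins in the choice of exons. Many SR and hnRNP genes are known to limit their own mRNA through exons or introns that lead to nonsense-mediated decay. In multiple myeloma, as in other blood cancers, splicing factor genes are recurrent subjects of study.

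Values are the deposited log2 intensities, and a difference is irradiated minus unirradiated, so that a negative one means a lower transcript signal after irradiation. Signals are relative to the rest of the RNA on an array and give no amount per cell. A gene is called, and "rose" or "fell" is used of it, when its limma p adjusted over all 18417 genes by the method of Benjamini and Hochberg is under 0.05. Array medians were 5.66 to 5.72 on irradiated arrays and 5.64 to 5.67 on unirradiated arrays, and the upper quartiles were 7.87 to 7.91 and 7.92 to 7.96. Of 9 plasma cell markers, 7 lay above the median of all values, among them JCHAIN, IRF4, XBP1 and SDC1, while SLAMF7 and CD27 lay below it. Of the markers of other cells, 0 of 4 for monocytes, 0 of 2 measured for erythroid cells, 1 of 4 for T cells, 1 of 4 for fibroblasts, 2 of 3 measured for B cells and 2 of 4 for epithelium lay above it, the last being EPCAM at 10.3 and KRT18 at 9.77. The summed level of the B cell markers was 20.0 to 20.2 in irradiated cells and 19.0 to 19.5 in unirradiated cells, with MS4A1 called higher. That of the fibroblast markers was 23.0 to 23.9 in irradiated cells and 22.4 to 22.7 in unirradiated cells, with COL1A1 and COL3A1 called higher. The plasma cell sum was 87.2 to 87.4 in irradiated cells and 87.2 to 87.3 in unirradiated cells, but its members moved in both directions. By limma, SLAMF7 rose by 0.55 (adjusted p 0.00271), while CD38 fell by 0.42 (0.0127) and XBP1 fell by 0.23 (0.0405). EPCAM also fell, by 0.39 (0.0154). The part of these markers in the results was not tested. Only 3 arrays a group limit the precision, and the standard error (SE) of a member's difference was 0.06 to 0.15.

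Transcript signals of several SR protein and hnRNP genes were lower in irradiated cells. Of the 9 SF3 genes, 1 was called lower and 1 higher, which is near the shares of all genes given below. In such bulk RNA, fewer cells of a type and less RNA per cell cannot be told apart. Of the 41 genes, 8 fell, 1 rose and 32 were not called. Among all 18417 genes, 8.18% were called lower and 6.35% higher, against 3 of 12 SR protein genes, 4 of 20 hnRNP genes and 1 of 9 SF3 genes lower, and 0, 0 and 1 of them higher. At an unadjusted limma p under 0.05, 7 SR protein genes, 8 hnRNP genes and 2 SF3 genes were lower and 0, 1 and 2 of them higher, beside 14% of all genes lower and 15.8% higher. The median log2 difference was -0.22 for SR protein genes, -0.16 for hnRNP genes and 0.04 for SF3 genes, beside 0.04 for all genes. A difference below 0 was found for 11 of 12 SR protein genes and 17 of 20 hnRNP genes, 3 of 9 SF3 genes and 7409 of all 18417 genes. Values of the irradiated arrays all lay below those of the unirradiated arrays for 9 SR protein, 11 hnRNP and 2 SF3 genes, and all above for 0, 1 and 3. Over all genes the shares were 15.7% below and 19% above. In some members, such as SRSF3, the groups barely cleared each other. Counts for bright genes, among which most members lie, are given further below.

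The changes were small. Among the called genes, the sizes ran from 0.30 for SRSF2 to 0.59 for HNRNPA1 on the log2 scale, which is 1.23-fold to 1.51-fold lower. Averaged over the 12 SR protein genes, the log2 level was 9.11, 9.11 and 9.15 on the irradiated arrays and 9.36, 9.29 and 9.29 on the unirradiated arrays. The hnRNP average was 8.61, 8.58 and 8.64 on the irradiated arrays and 8.81, 8.80 and 8.79 on the unirradiated arrays. In both families the groups did not overlap. The SF3 average did overlap, at 10.68, 10.78 and 10.73 on the irradiated arrays and 10.68, 10.74 and 10.70 on the unirradiated arrays.

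**Figure D1:**
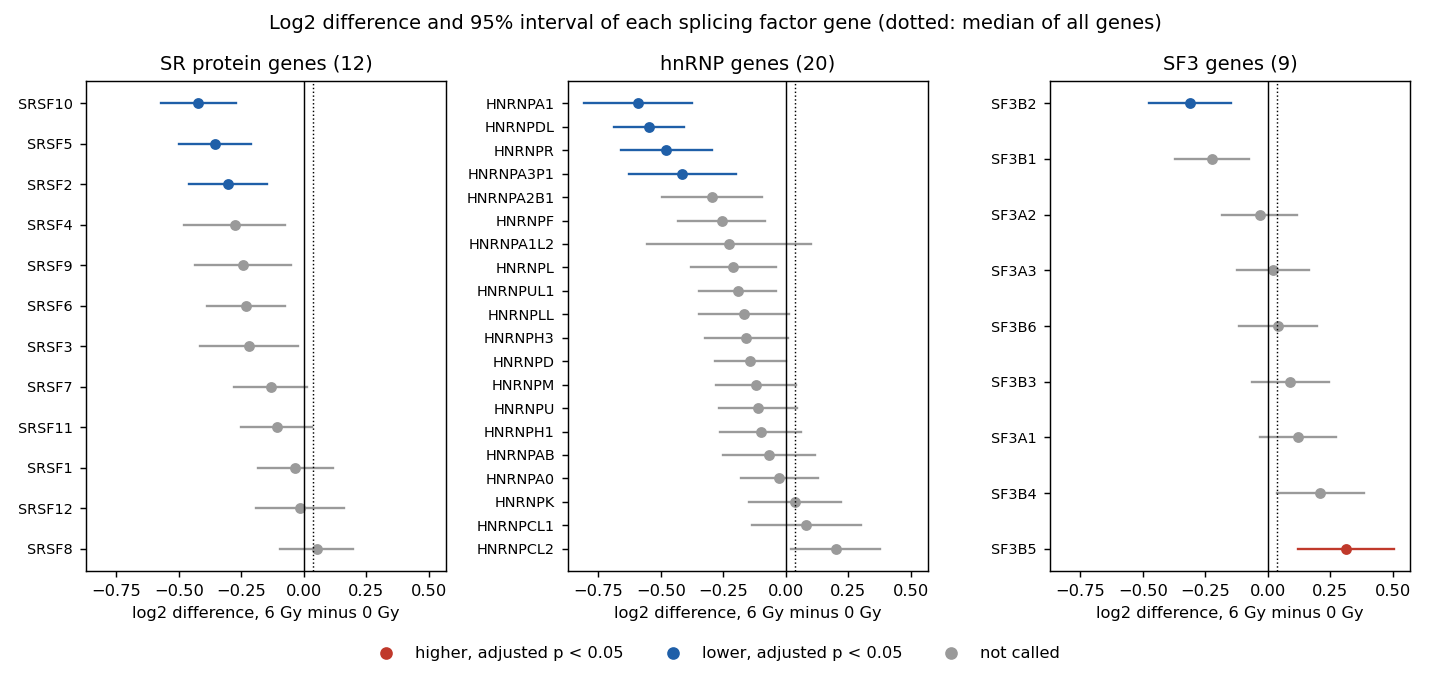
Log2 difference (irradiated minus unirradiated, x axis) of each of the 41 genes, by family, with its 95% limma interval. Blue marks the 8 genes called lower, red the 1 called higher and grey the 32 not called. The dotted line is the median of all genes, 0.04. Most SR protein and hnRNP genes lie left of 0, and the SF3 genes lie on both sides.

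Windows of 250 bases before the annotated start were compared because members of 2 families moved the same way. They were taken from RefSeq (GRCh38.p14), which held 52 windows for 37 of the 41 genes. SRSF2, HNRNPA1, HNRNPA3P1 and SF3B3 were not matched. Shown are the called genes with a single window, read 5′ to 3′ on the strand of the gene and ending at the base before the start. Capitals mark matches, on either strand, to the GC box GGGCGG, the CCAAT box CCAAT, the TATA box TATAAA, the core of ETS factor sites CCGGAAG, the core of NRF1 sites GCGCATGC, the cAMP response element TGACGTCA, the E-box CACGTG and the core of YY1 sites CCATNTT. These motifs can overlap one another.
SRSF10 (fell), chr1:23980328-23980577, minus strand: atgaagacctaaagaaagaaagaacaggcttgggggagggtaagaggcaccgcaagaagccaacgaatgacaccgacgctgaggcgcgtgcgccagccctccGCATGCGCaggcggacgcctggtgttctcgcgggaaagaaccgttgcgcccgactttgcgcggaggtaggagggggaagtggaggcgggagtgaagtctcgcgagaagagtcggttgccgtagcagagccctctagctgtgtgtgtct
SRSF5 (fell), chr14:69766892-69767141, plus strand: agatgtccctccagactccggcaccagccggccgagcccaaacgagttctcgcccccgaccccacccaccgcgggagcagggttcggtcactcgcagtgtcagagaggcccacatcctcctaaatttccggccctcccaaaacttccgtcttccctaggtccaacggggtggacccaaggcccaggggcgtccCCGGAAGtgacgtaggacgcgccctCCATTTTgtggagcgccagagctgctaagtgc
HNRNPR (fell), chr1:23344285-23344534, minus strand: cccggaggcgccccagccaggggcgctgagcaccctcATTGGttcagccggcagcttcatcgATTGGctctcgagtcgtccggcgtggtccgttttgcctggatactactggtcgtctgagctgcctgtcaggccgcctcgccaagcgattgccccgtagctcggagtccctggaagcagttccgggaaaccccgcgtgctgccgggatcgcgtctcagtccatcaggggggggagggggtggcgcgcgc
SF3B2 (fell), chr11:66052114-66052363, plus strand: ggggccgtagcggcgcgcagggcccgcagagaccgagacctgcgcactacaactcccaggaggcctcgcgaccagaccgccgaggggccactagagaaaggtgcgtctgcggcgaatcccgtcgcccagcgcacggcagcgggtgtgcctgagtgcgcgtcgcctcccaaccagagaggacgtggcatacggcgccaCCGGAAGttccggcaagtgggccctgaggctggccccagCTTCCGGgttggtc
SF3B5 (rose), chr6:144095574-144095823, minus strand: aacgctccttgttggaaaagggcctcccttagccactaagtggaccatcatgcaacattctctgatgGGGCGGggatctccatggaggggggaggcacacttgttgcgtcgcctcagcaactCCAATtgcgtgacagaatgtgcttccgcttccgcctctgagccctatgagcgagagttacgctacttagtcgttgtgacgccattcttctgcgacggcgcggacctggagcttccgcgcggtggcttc

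None of the 8 motifs is in all 4 windows of genes that fell. SRSF10 has 1 match, to the NRF1 core. SRSF5 has 1 match to the ETS core and 1 to the YY1 core. HNRNPR has 2 matches to the CCAAT box, SF3B2 has 2 to the ETS core, and SF3B5, the gene that rose, has 1 to the GC box and 1 to the CCAAT box. A gene counts once if any of its windows has a match, and all genes are here the 27305 with a window. These outnumber the genes measured alone on the array. The ETS core matched 6 of 8 SF3, 2 of 11 SR protein and 3 of 18 hnRNP genes, beside 10.2% of all genes. The CCAAT box was found for 1 of 8 SF3 genes, 2 of 11 SR protein genes and 14 of 18 hnRNP genes, beside 37% of all genes. The GC box was found for 23 of the 37 genes and for 46.2% of all. The TATA box was found for 5 of 37 (13% of all), the NRF1 core for 4 (3.22%), the E-box for 5 (7.73%), the YY1 core for 6 (14%) and the cAMP response element for 0 (2.03%). By window, the shares in members and in all 35116 windows were 21.2% and 8.52% for the ETS core and 38.5% and 32% for the CCAAT box. The median GC content was 64.4% in the windows of members and 58% in all windows, and its part in these shares was not tested.

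Among SR proteins, SRSF10, SRSF5 and SRSF2 fell. SRSF10 encodes an SR protein that represses splicing when dephosphorylated, as it is after heat shock. Its log2 value was 8.02, 8.08 and 7.97 in irradiated cells, against 8.40, 8.43 and 8.49 in unirradiated cells. All 3 irradiated values lay below all unirradiated ones, and the difference of -0.42 ± 0.07 (SE) was 1.34-fold lower, with a limma adjusted p of 0.00326. A second probe set of SRSF10 read 7.68, 7.90 and 7.88 in irradiated cells, against 8.14, 8.16 and 8.17 in unirradiated cells. It differed by -0.33, with a limma adjusted p of 0.0194 when every probe set was tested on its own, and the groups again did not overlap.

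SRSF5, an activator of exon inclusion, read 7.53, 7.57 and 7.57 in irradiated cells, against 7.86, 7.94 and 7.93 in unirradiated cells. The groups stood apart by more than their inner spread, with a difference of -0.36 ± 0.06 (SE), 1.28-fold lower, and a limma adjusted p of 0.00613. SRSF2, an activator mutated in blood cancers, read 10.32, 10.22 and 10.30 in irradiated cells, against 10.66, 10.51 and 10.57 in unirradiated cells. This difference of -0.30 ± 0.07 (SE) was 1.23-fold lower, with a limma adjusted p of 0.0193. The call of SRSF2 ended when irradiated replicate 2 (adjusted p 0.0585), unirradiated replicate 1 (0.0795) or unirradiated replicate 3 (0.0501) was left out, whereas SRSF10 and SRSF5 were called without any 1 array.

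SRSF4, SRSF6, SRSF9, SRSF3, SRSF7 and SRSF11 had lower values on all irradiated than on all unirradiated arrays but were not called. For SRSF3, SRSF9 and SRSF4 the margin was narrow. Their highest irradiated values were 9.995, 9.732 and 9.105, and their lowest unirradiated values 9.996, 9.742 and 9.123. SRSF4, a long-tailed SR protein, averaged 8.98 ± 0.11 in irradiated cells and 9.26 ± 0.14 in unirradiated cells (SD, n = 3 each). The difference was -0.28 ± 0.09 (SE), with a limma adjusted p of 0.0698. SRSF6, its close relative, averaged 9.57 ± 0.05 in irradiated cells and 9.80 ± 0.08 in unirradiated cells (SD, n = 3 each), which differ by -0.23 (limma adjusted p 0.0555). Of these genes, SRSF4, SRSF6, SRSF9 and SRSF3 were called in some of 13 alternative settings (4, 3, 3 and 1 of them) and SRSF7 and SRSF11 in 0. SRSF4 was called without irradiated replicate 3 (adjusted p 0.0480), as was SRSF9 (0.0385), and SRSF3 was called without unirradiated replicate 2 (0.0425). SRSF9 differed by -0.24 (0.0889) over all arrays and SRSF3, the smallest SR protein and an mRNA export adaptor, by -0.22 (0.128). SRSF7, which resembles SRSF3 and also serves export, differed by -0.13 (0.205), and SRSF11, an SR-like protein, by -0.11 (0.291).

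The remaining 3 SR protein genes overlapped between groups. SRSF1, the founding SR protein and an oncoprotein when overproduced, averaged 10.67 ± 0.03 in irradiated cells and 10.70 ± 0.07 in unirradiated cells (SD, n = 3 each). Its difference of -0.03 had a 95% interval from -0.18 to 0.12. SRSF8, encoded by a copy of SRSF2 that arose by retroposition, differed by 0.05 (-0.09 to 0.20). SRSF12 differed by -0.02 (-0.19 to 0.16), at levels of 4.30 to 4.49, below the array medians. Of the 12 genes, 5 were called lower when irradiated replicate 3 was left out and 2 when irradiated replicate 2, unirradiated replicate 1 or unirradiated replicate 3 was.

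**Figure D2:**
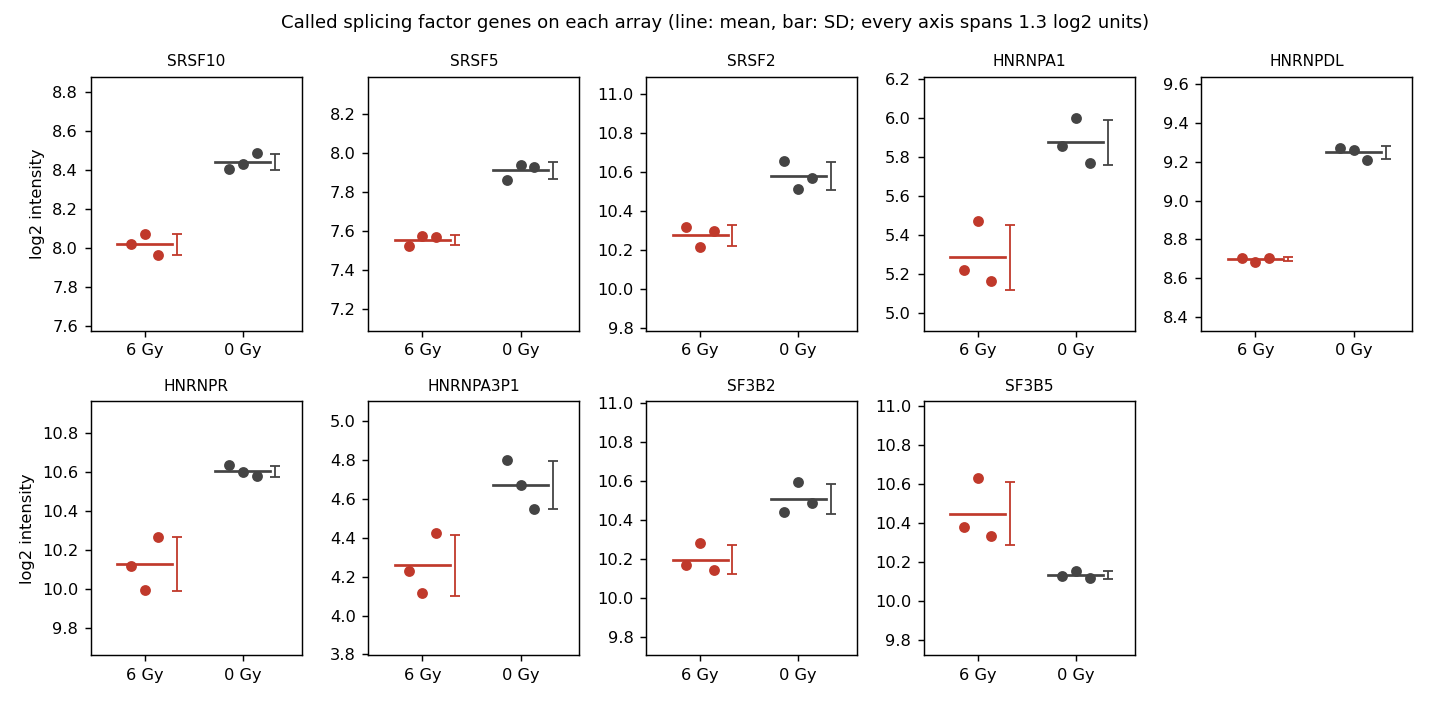
Log2 intensity (y axis) of the 9 called genes on each array, irradiated (6 Gy, red) left of unirradiated (0 Gy, dark grey). Points are arrays, lines the means and bars the SD over 3 arrays. In every panel the groups do not overlap, and SF3B5 alone is higher in irradiated cells.

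Among hnRNPs, HNRNPDL, HNRNPR, HNRNPA1 and HNRNPA3P1 fell. HNRNPDL, whose protein resembles that of HNRNPD and binds AU-rich mRNA, had the smallest p of all 41 genes. It read 8.71, 8.69 and 8.70 in irradiated cells, against 9.27, 9.26 and 9.21 in unirradiated cells. The gap is many times the spread within either group, and the difference of -0.55 ± 0.06 (SE) was 1.46-fold lower, with a limma adjusted p of 5.70e-04. HNRNPR, whose protein binds mRNA in nucleus and cytoplasm, read 10.12, 9.99 and 10.27 in irradiated cells, against 10.64, 10.60 and 10.58 in unirradiated cells. Its irradiated values were more scattered, and the difference of -0.48 ± 0.08 (SE) was 1.39-fold lower, with a limma adjusted p of 0.00442. Both genes were called without any 1 array.

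HNRNPA1 encodes a much studied splicing repressor and telomere-binding protein. The probe set that lists HNRNPA1 alone rests on 1 transcript accession and read 5.22, 5.47 and 5.16 in irradiated cells, against 5.86, 6.00 and 5.77 in unirradiated cells. These values lie around the array medians, and the groups did not overlap. The difference of -0.59 ± 0.10 (SE) was 1.51-fold lower (limma adjusted p 0.00374), the largest among the 41 genes. Probe sets that HNRNPA1 shares with its copies were far brighter and differed less, by -0.25 to -0.35. They averaged 11.56 to 11.72 in irradiated cells and 11.89 to 12.03 in unirradiated cells. HNRNPA3P1 is a transcribed pseudogene of HNRNPA3 and read 4.23, 4.12 and 4.43 in irradiated cells, against 4.80, 4.67 and 4.55 in unirradiated cells. It differed by -0.41 ± 0.10 (SE), with a limma adjusted p of 0.0193, below the array medians. Leaving out irradiated replicate 1 or 2 or unirradiated replicate 1 or 2 ended this call (adjusted p 0.0545, 0.0562, 0.0751 and 0.0597), while HNRNPA1 was called without any 1 array. Transcripts of near-identical copies can bind the same probes, so both values are uncertain as to their source.

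The rest of the family was not called. HNRNPD, which encodes AUF1, a factor of mRNA decay, averaged 11.55 ± 0.04 in irradiated cells and 11.69 ± 0.01 in unirradiated cells (SD, n = 3 each), a difference of -0.14 (limma adjusted p 0.169). HNRNPL, a regulator of alternative exons in lymphocytes, differed by -0.21 (0.0982) and HNRNPUL1 by -0.19 (0.0916), both without overlap of the groups. HNRNPK, whose protein binds C-rich RNA and DNA, differed by 0.04 with a 95% interval from -0.15 to 0.22, and HNRNPAB by -0.07 (-0.25 to 0.12). Named after their values were seen, HNRNPA2B1 and HNRNPF lay just outside the threshold. HNRNPA2B1, a reader of RNA marks that sorts mRNA, averaged 9.99 ± 0.05 in irradiated cells and 10.29 ± 0.17 in unirradiated cells (SD, n = 3 each), differed by -0.30 (limma adjusted p 0.0532) and was called without unirradiated replicate 1 (0.0229). HNRNPF, which binds G-rich RNA, averaged 9.38 ± 0.10 in irradiated cells and 9.64 ± 0.07 in unirradiated cells (SD, n = 3 each), differed by -0.26 (0.0547) and was called without irradiated replicate 3 (0.0296). The retroposed copies HNRNPA1L2, HNRNPCL1 and HNRNPCL2 differed by -0.23, 0.08 and 0.20. HNRNPCL1 and HNRNPCL2 were dim, and HNRNPA1L2 lay around the array medians, as did the probe set of HNRNPA1 alone. HNRNPCL2, with an adjusted p of 0.127, was the 1 gene of the family whose irradiated values were all above the unirradiated ones. The 6 other genes differed by -0.17 to -0.03, with limma adjusted p from 0.187 to 0.834.

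Several well-known hnRNPs were read by probe sets that list more than 1 gene, which are not among those that stood for the 41 genes. There were 12 such probe sets, tested with limma over all 33297 probe sets, of which 4.09% were called lower and 2.19% higher. Those 33297 include 12083 that list no gene, whereas the 12 were bright. Of the genes measured alone with a mean of at least 9, 10.6% were called lower and 9.52% higher. Of the 12, 6 were lower and 0 higher, and at an unadjusted p under 0.05 the counts were 8 and 0, beside 11.2% and 10.8% of all probe sets. They share transcripts, so they are not independent readings. For HNRNPA3, which shares its 3 probe sets with HNRNPA3P1, all 3 fell. The probe set with the largest difference read 10.02, 9.80 and 9.73 in irradiated cells, against 10.38, 10.45 and 10.48 in unirradiated cells. That is a difference of -0.58 ± 0.09 (SE) (limma adjusted p 0.0142), and the other probe sets differed by -0.51 and -0.48. For HNRNPA1 and its copies, 2 of 4 probe sets fell, by 0.35 and 0.32 on the log2 scale (limma adjusted p 0.0390 and 0.0416), and the others differed by -0.33 (0.0530) and -0.25 (0.118). All 4 had every irradiated value below every unirradiated one.

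HNRNPUL2, read together with its readthrough transcript into BSCL2, fell: it had 9.39, 9.50 and 9.48 in irradiated cells, against 9.85, 9.93 and 9.90 in unirradiated cells. The difference was -0.43 ± 0.07 (SE), with a limma adjusted p of 0.0132. The probe set of BSCL2 and the same readthrough differed by 0.04 (0.817). HNRNPC, whose protein binds uridine tracts and keeps cryptic exons silent, was read by 2 probe sets shared with its copies, which differed by 0.09 (0.437) and 0.09 (0.583). In the first of them the irradiated values of 11.57, 11.57 and 11.66 lay above the unirradiated values of 11.53, 11.48 and 11.51. HNRNPH2 with its readthrough from RPL36A differed by -0.08 (0.634). Both HNRNPA1 calls ended when any 1 array was left out (adjusted p up to 0.142 and 0.124). The 3 HNRNPA3 calls ended without unirradiated replicate 2 (0.0624, 0.0611 and 0.0568), and 2 of them without unirradiated replicate 3 (0.0537 and 0.0517). The HNRNPUL2 call ended without irradiated replicate 1 (0.0539) or unirradiated replicate 2 (0.0621).

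**Figure D3:**
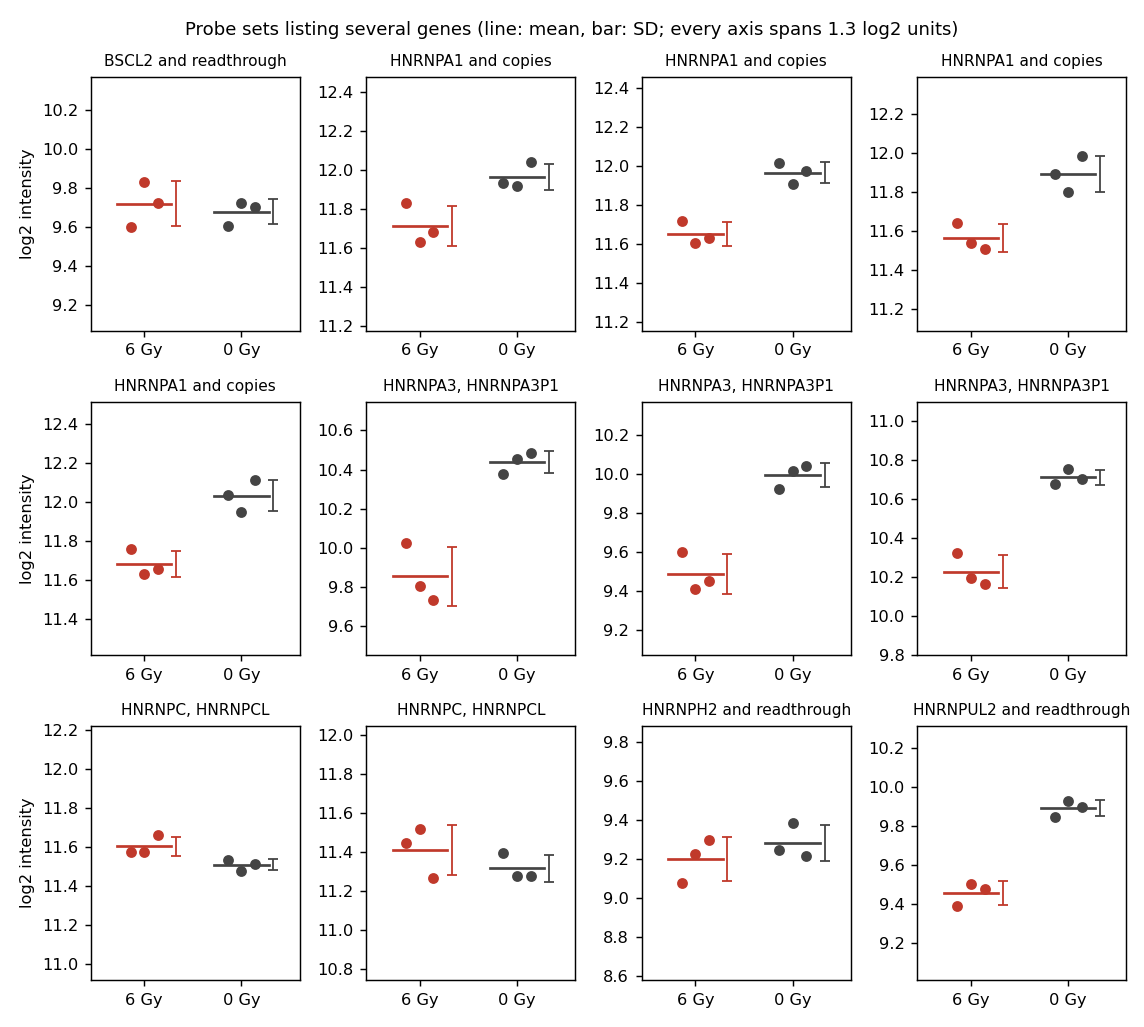
Log2 intensity (y axis) of the 12 probe sets that list several genes on each array, irradiated (6 Gy, red) left of unirradiated (0 Gy, dark grey), with mean lines and SD bars over 3 arrays. The 4 HNRNPA1, 3 HNRNPA3 and 1 HNRNPUL2 panels show lower irradiated values without overlap, and the HNRNPC panels do not.

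Within SF3, 1 subunit fell and 1 rose. SF3B2, a subunit that contacts RNA next to the branch point, read 10.17, 10.28 and 10.14 in irradiated cells, against 10.44, 10.59 and 10.49 in unirradiated cells. All irradiated values were the lower ones, with a difference of -0.31 ± 0.07 (SE), 1.24-fold lower, and a limma adjusted p of 0.0208. SF3B5, the smallest SF3B subunit, read 10.38, 10.63 and 10.33 in irradiated cells, against 10.13, 10.16 and 10.12 in unirradiated cells. Its irradiated values were all higher, 1 of them by more than the others, and the difference of 0.31 ± 0.09 (SE) was 1.24-fold higher, with a limma adjusted p of 0.0372. The call of SF3B5 ended without irradiated replicate 1 (0.0552) or 2 (0.0894) or any unirradiated array (0.1002, 0.0925 and 0.0964), and with array medians subtracted (0.0519). That of SF3B2 ended without irradiated replicate 1 (0.0625) or 3 (0.0534) or unirradiated replicate 2 (0.0866) or 3 (0.0513).

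SF3B1, the large scaffold that cradles the branch point and is mutated in blood cancers, averaged 9.89 ± 0.04 in irradiated cells and 10.11 ± 0.05 in unirradiated cells (SD, n = 3 each). The groups did not overlap, and the difference of -0.22 ± 0.07 (SE) just missed the threshold (limma adjusted p 0.0520). SF3B4, an RNA-binding subunit and partner of SF3B2, averaged 9.96 ± 0.05 in irradiated cells and 9.75 ± 0.12 in unirradiated cells (SD, n = 3 each). It differed by 0.21 (limma adjusted p 0.103), with all irradiated values above the unirradiated ones, which also held for SF3A1 at 0.12 (0.266). The other subunits overlapped between groups: SF3B3 differed by 0.09, SF3B6, which touches the branch point adenosine, by 0.04, SF3A3 by 0.02 and SF3A2 by -0.03. Their 95% intervals together ran from -0.18 for SF3A2 to 0.24 for SF3B3. SF3A3 differed by -0.01 with array medians subtracted.

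**Figure D4:**
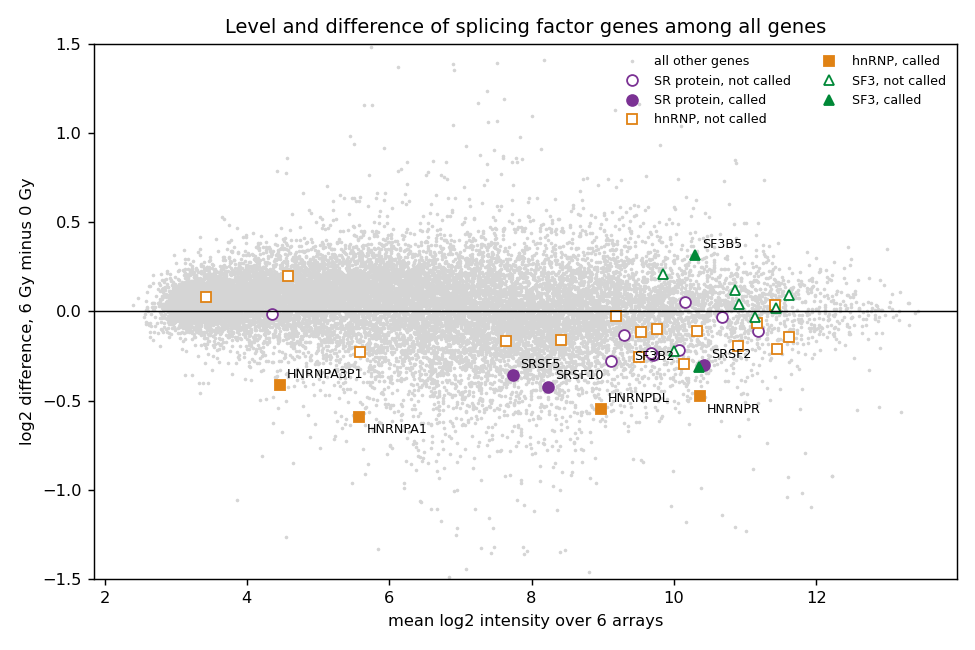
Log2 difference (irradiated minus unirradiated, y axis) against the mean log2 intensity over 6 arrays (x axis) for all 18417 genes (grey dots) and the 41 genes (symbols by family, filled where called). The y axis ends at 1.5 either way and leaves out 25 genes. Most of the 41 genes lie at high intensity, and most SR protein and hnRNP symbols lie under the line at 0.

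The families lie at high intensities: 30 of the 41 genes had a mean log2 value of at least 9. Of all 3037 genes at that level, 10.6% were called lower and 9.52% higher, and their median difference was 0.01. A difference below 0 was found for 1463 of these 3037 genes. Irradiated values all lay below the unirradiated ones for 736 of them and all above for 758. At an unadjusted limma p under 0.05, 559 of them were lower and 533 higher. The upper quartile of all values was lower on irradiated arrays, as given above, and its part in the family differences was not tested. Of the 2 scalings, quantile normalization left the counts of called genes in the 3 families unchanged, and subtraction of array medians moved them. With array medians subtracted, 6 SR protein, 7 hnRNP and 2 SF3 genes were called lower and 0 SF3 genes higher. Under that scaling 10.4% of all genes were called lower and 5.3% higher. With quantile normalization the median difference of the hnRNP genes was -0.12 rather than -0.16.

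Genes around the 3 families were described from 9 lists, with the share of all genes called lower (8.18%) and higher (6.35%) again as background. SR-related proteins, which hold arginine-serine stretches without being classical SR proteins, had 7 of 22 lower and 0 higher by limma (2 higher at an unadjusted p under 0.05), with a median of -0.13. ARGLU1, whose own mRNA has an ultraconserved regulated exon, fell by 0.69 on the log2 scale, PNISR fell by 0.57, SREK1 fell by 0.53, RBM39, a partner of U2AF, fell by 0.45, RSRC2 fell by 0.44 and the apoptosis-linked ACIN1 fell by 0.35. Their limma adjusted p lay between 0.0015 for SREK1 and 0.0185 for PNISR. The calls of ACIN1 and PNISR ended without unirradiated replicate 1 (0.0535) and unirradiated replicate 2 (0.0696).

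Kinases that phosphorylate SR proteins or travel with them, and the importins that carry them into the nucleus, had 4 of 14 lower and 0 higher (1 higher at an unadjusted limma p under 0.05), with a median of -0.08. CLK2, a nuclear kinase of SR proteins, averaged 9.16 in irradiated cells and 9.78 in unirradiated cells, and this difference of -0.62 ± 0.08 (SE) was 1.54-fold lower (limma adjusted p 8.36e-04). CLK1, its relative, fell by 0.37 (0.00506). The cyclin-dependent kinase genes CDK11B and CDK11A, near-identical copies whose signals may be shared, fell by 0.42 each (0.00346 and 0.0249). The call of CDK11A ended without irradiated replicate 2 or 3 (0.0714 and 0.0670) or unirradiated replicate 1 or 2 (0.0909 and 0.0894). RNA-binding proteins akin to hnRNPs had 5 of 27 lower and 0 higher (1 higher at an unadjusted limma p under 0.05), with a median of -0.07. The cold-inducible RBM3 and CIRBP fell by 0.72 and 0.57, TAF15 fell by 0.47, EWSR1 fell by 0.40 and PTBP2 fell by 0.37, with limma adjusted p from 2.45e-04 for RBM3 to 0.0137 for PTBP2. Leaving out unirradiated replicate 1 or 2 ended the call of PTBP2 (0.0582 and 0.0553).

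Among core parts of the spliceosome, 7.69% to 16.7% of the genes of a list were called lower, beside 8.18% of all genes. Higher calls came only from the list of U1, U2, Sm and LSm proteins (9.52%, beside 6.35% of all genes). Of 21 proteins of the U1 and U2 snRNPs and the Sm and LSm rings, 2 were lower and 2 higher, with a median of -0.12. LUC7L3, a U1-linked protein, fell by 0.71 (limma adjusted p 0.00165) and SNRPA1, a U2 protein read at a dim 3.81 in irradiated cells and 4.62 in unirradiated cells, fell by 0.81 (0.0143). The ring subunits LSM5 and LSM7 rose by 0.31 (0.0145) and 0.30 (0.0465). Of 13 other partners of U2, 1 was lower and 0 higher (0 higher at an unadjusted limma p under 0.05), the helicase gene DDX42 (-0.29, adjusted p 0.0415). Of 20 proteins of the tri-snRNP and the Prp19 complex, 2 were lower, the ubiquitin ligase gene PRPF19 (-0.39, 0.00582) and SYF2 (-0.46, 0.00728), and 0 higher, also at an unadjusted p under 0.05. Of 12 helicases and late factors, the second-step factor gene SLU7 (-0.48, 0.0132) and DDX39A (-0.25, 0.0487) were lower and 0 higher, again also unadjusted. The medians of these 3 lists were -0.13, -0.05 and -0.07.

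Leaving out 1 array ended the call of LSM7 (any array, adjusted p up to 0.135, and subtracted array medians, 0.0604), DDX39A (any array, up to 0.16), DDX42 (any except irradiated replicate 3, up to 0.129, and quantile normalization, 0.0893), LSM5 (unirradiated replicates 1 and 2, 0.0577 and 0.0535) and SLU7 (unirradiated replicates 1 and 3, 0.0520 and 0.0504). Genes whose symbol is RNU and a number had 3 of 15 lower and 0 higher, also 0 at an unadjusted limma p under 0.05, with a median of -0.28. This list takes in RNU105B and RNU105C, which are small nucleolar RNAs, and without them 3 of 13 were lower, with a median of -0.28. RNU2-1, the RNA of the U2 snRNP that SF3 proteins join, differed by -0.54 (limma adjusted p 0.0184), RNU11 of the minor spliceosome by -0.40 (0.0242) and the dim RNU5F-1 by -0.53 (0.0363). These 3 calls also ended when certain arrays were left out: irradiated replicate 1 or unirradiated replicate 1 for each (adjusted p up to 0.0862), unirradiated replicate 2 for RNU2-1 and RNU11 (0.0609 and 0.0542), and irradiated replicate 3 or unirradiated replicate 3 for RNU5F-1 (0.0934 and 0.0593).

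The exon junction complex, which splicing leaves on mRNA, and the nonsense-mediated decay factors that read it had the highest count of lower calls among these 9 lists. Of 12 measured, 8 were lower and 1 higher, and the median was -0.30. Of the junction complex genes, CASC3 and RBM8A fell, by 0.28 (limma adjusted p 0.0225) and 0.25 (0.0388). EIF4A3, MAGOHB and MAGOH differed by -0.14 (0.179), -0.20 (0.0755) and -0.05 (0.633) and were not called. The genes named next are decay factors. SMG9, encoding a regulator of the decay kinase SMG1, fell by 0.76 (1.69-fold lower, limma adjusted p 2.60e-04), and SMG5, encoding an effector of decay, fell by 0.67 (5.63e-04). UPF2, which bridges the junction complex and the decay helicase, fell by 0.54 (0.00389), SMG6, the endonuclease of the pathway, fell by 0.36 (0.0200) and SMG1 fell by 0.32 (0.0105). SMG8, encoding the partner of SMG9, rose by 0.41 (0.00905). The call of SMG6 ended without irradiated replicate 1 (0.0655) or unirradiated replicate 1 (0.0785) or 2 (0.0771).

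**Figure D5:**
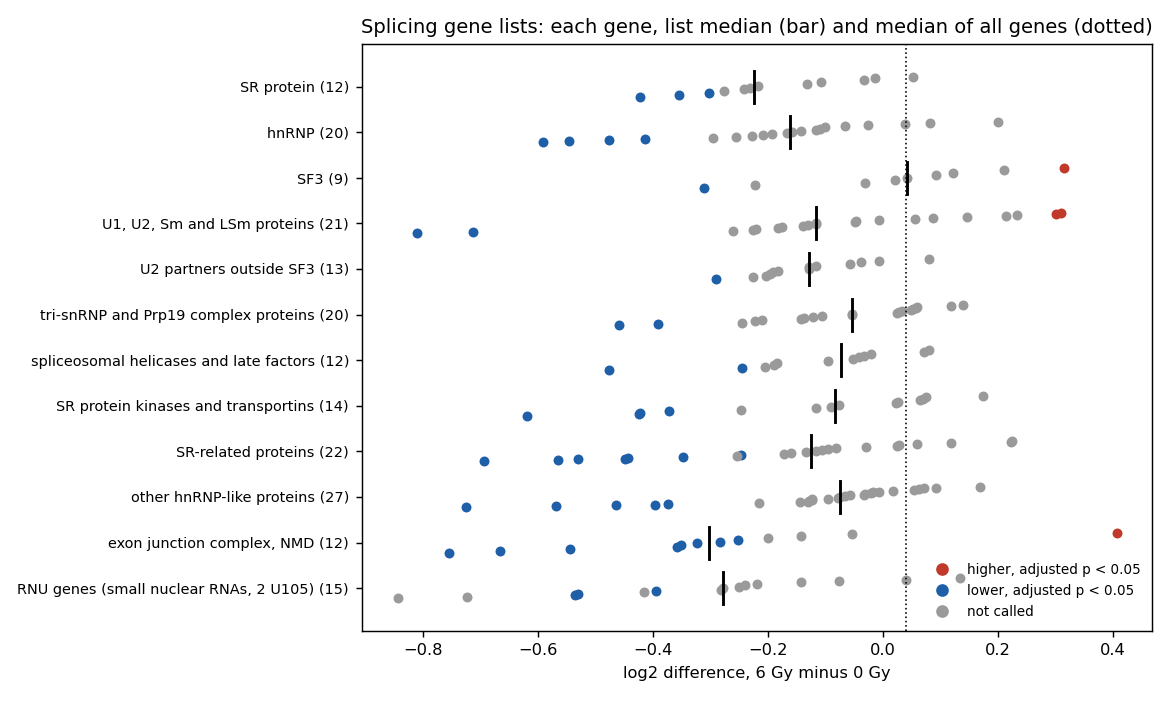
Log2 difference (irradiated minus unirradiated, x axis) of each gene in the 3 families and 9 splicing lists, with the number measured in brackets. Blue marks genes called lower, red genes called higher and grey genes not called, the bar is the list median and the dotted line the median of all genes. The exon junction and decay list has 8 of 12 genes in blue.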

How the data were processed

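Trizol-extracted total RNA carried a biotin label, per the labels' protocols. The authors deposited log2 intensities of 33297 probe sets on 6 arrays. Their range gave the base, and for normalization and software the sources used here name nothing. GEO's platform annotation named the probe sets: 19460 list 1 gene, 1754 several and 12083 none. No genome build comes with the values. Genes were tested with limma 3.58.1 (lmFit, eBayes; 4 residual and 5.85 prior degrees of freedom) in R 4.3.3, two-sided, without covariate or filter, with Benjamini-Hochberg adjustment over 18417 genes. SE are limma's, SD over 3 arrays. Steps were tested on simulated data. Motifs and figures used Python 3.11.15, pandas 2.3.3 and matplotlib 3.10.9. Members and lists were chosen with earlier results of these data known. Named were all SR protein and SF3 genes, called hnRNP genes, the 5 hnRNP genes of highest mean, copies, and up to 6 called genes a list. Genes of the exon junction complex were named after their values were seen. The 14 alternatives were the sample number as a block, a filter on dim genes, 2 scalings, another prior, 2 treatments of several probe sets, a stricter threshold and each array left out. The background of bright genes, the fit over all probe sets and the RNU list without small nucleolar RNAs were chosen after seeing the data.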

Additional observations from a re-analysis of the deposited data

How the results depend on the processing

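Array number limits these results, and the table has no detection calls. No setting tried changed the sign of the called genes among the 41. The same held for the called list genes named, apart from CASC3 and RBM8A, which were not followed through the settings. Lower calls among SR protein genes were 3 in the analysis reported, 5 without the dimmest 33.3% of genes, 6 with array medians subtracted, 6 with an intensity trend and robust prior, and 2 to 5 with 1 array left out. Among hnRNP genes they were 4, against 7 with array medians subtracted, 9 with the trend and robust prior, and 3 to 5 with 1 array left out. For SF3 genes the 1 lower call became 2 without the dimmest 33.3% of genes, 2 with array medians subtracted, 2 with the trend and 0 at an adjusted p under 0.01, and 0 to 1 with 1 array left out. The 1 higher SF3 call became 0 with array medians subtracted, 0 with the replicate block, 0 at an adjusted p under 0.01 and 2 with the trend, and 0 to 1 with 1 array left out. The cause was not tested. Over all genes, lower calls also grew, to 14.5% of the 12278 genes left without the dimmest, 10.4% with array medians subtracted and 9.87% with the trend, beside 8.18% in the analysis reported. Higher calls over all genes were 765 with the replicate block, 384 at an adjusted p under 0.01 and 619 to 887 with 1 array left out. Lower calls were 693 at an adjusted p under 0.01 and 852 to 1324 with 1 array left out, against 1169 higher and 1507 lower in the analysis reported.

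The labels do not say whether the sample numbers pair the samples. Deviations of same-numbered arrays correlated at -0.04, 0.10 and -0.11, and those of unlike-numbered arrays at -0.11 to 0.15. With so few arrays these values cannot show whether samples were paired. With the number as a replicate block, SF3B5 had an adjusted p of 0.0533, and no other call among the 41 genes changed. The block also ended the calls of LSM7 (0.0823), DDX42 (0.0853), DDX39A (0.101), RNU11 (0.0633) and RNU5F-1 (0.0679), and the 6 calls among shared probe sets (0.0574 to 0.103). Signs of 7 uncalled members and 1 uncalled shared probe set turned in some settings. SF3A3 differed by -0.00883 with array medians subtracted. With 1 array left out, HNRNPA0 ran from -0.0598 to 0.0154, HNRNPAB from -0.14 to 0.0081, HNRNPK from -0.026 to 0.0899, SF3A2 from -0.0506 to 0.000467, SRSF1 from -0.0634 to 0.0054, SRSF12 from -0.0633 to 0.0457 and the BSCL2 probe set from -0.0153 to 0.0999. HNRNPA3P1, HNRNPCL1, HNRNPCL2 and SRSF12 are in that dimmest share and gave no value without it.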
